A study of Mus musculus with 24 samples.

Results

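The question here is which genes of MIN6 cells, a mouse insulinoma line used as a model of the pancreatic beta cell, answered 3 h of endoplasmic reticulum (ER) stress differently when the cells carried a plasmid for EIF2A than when they carried a control plasmid. The quantity is a difference of differences, called the interaction: the change of a gene from 0 h to 3 h in EIF2A cells minus its change over the same time in GFP cells, on the log2 scale. The 12 libraries chosen for it, of 24 in the series, are replicates 2 to 4 of 4 groups. In the GFP groups the plasmid encodes GFP, and in the EIF2A groups it encodes EIF2A fused to GFP. Each was taken after DMSO, the vehicle, written here as 0 h, or after 3 h of 1 µM thapsigargin, and all cells were grown in high-glucose medium with serum. No vehicle was taken at 3 h, so the drug and the time in culture cannot be told apart. Replicate 1 of each group was left out because its Eif2a level ran opposite to its labels. It held 269.6 and 359 CPM (a gene's counts scaled to the size of its library) in the GFP libraries at 0 and 3 h and 80.4 and 104 CPM in the EIF2A libraries. The labels do not say whether replicates were separate cultures, so p-values measure the spread between these libraries, which may be technical. They also do not say whether cells were a stable pool or a transient transfection, or from which species the EIF2A sequence came.

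Thapsigargin blocks SERCA, the pump that fills the ER with calcium. The ER then folds proteins poorly, and calcium rises in the cytosol. Among the ER stress sensors, PERK phosphorylates the initiation factor eIF2, which lowers most translation, raises that of ATF4 and so induces the genes of the integrated stress response, CHOP (Ddit3) among them. IRE1 splices the Xbp1 mRNA and cuts some other mRNAs at the ER membrane. The calcium signal also reaches CREB and the MAP kinases, which switch on immediate early genes such as Fos and the Nr4a family within the first hour. EIF2A is a separate initiator tRNA-binding protein that shares only its name with a subunit of eIF2.

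Of 24421 genes in the table, 13615 passed the filter on low counts and were tested with edgeR's quasi-likelihood test. The response differed between the constructs for 330 of them (2.42% of genes tested) at a Benjamini-Hochberg adjusted p under 0.05. It was lower in EIF2A for 210 genes (1.54%) and higher for 120 (0.881%). Against this, thapsigargin changed 61.8% of genes in GFP and 61.6% in EIF2A. Both responses ran together across the 10944 genes that averaged 5 CPM or more, with Pearson's r at 0.924 and Spearman's rho at 0.922 (a description across genes, not over replicates). The interaction passed 2-fold in 34 of the 330 genes. Genes whose mean response over both constructs was a rise of at least 1 on the log2 scale numbered 401. Their median rise was 1.21 in GFP and 1.30 in EIF2A, and 158 of them rose less in EIF2A. The order of the medians reversed at higher cuts. For the 104 genes with a mean rise of at least 1.5 they were 2.02 in GFP and 1.86 in EIF2A, and 61 rose less in EIF2A. For the 44 with at least 2 they were 2.47 and 2.39, and 29 rose less in EIF2A. Among 187 genes with a mean fall of at least 1, the median was -1.10 in GFP and -1.22 in EIF2A. Among called genes that averaged 5 CPM or more, the 12 lowest interactions were those of Sik1, Diras2, Nr4a1, Tbx3, Nr4a2, Flrt3, Nr4a3, Fos, Igf1r, Cebpd, Egr1 and Lrrtm2, and the highest were those of Dyrk2, Npas4 and Bloc1s1.

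**Figure D1:**
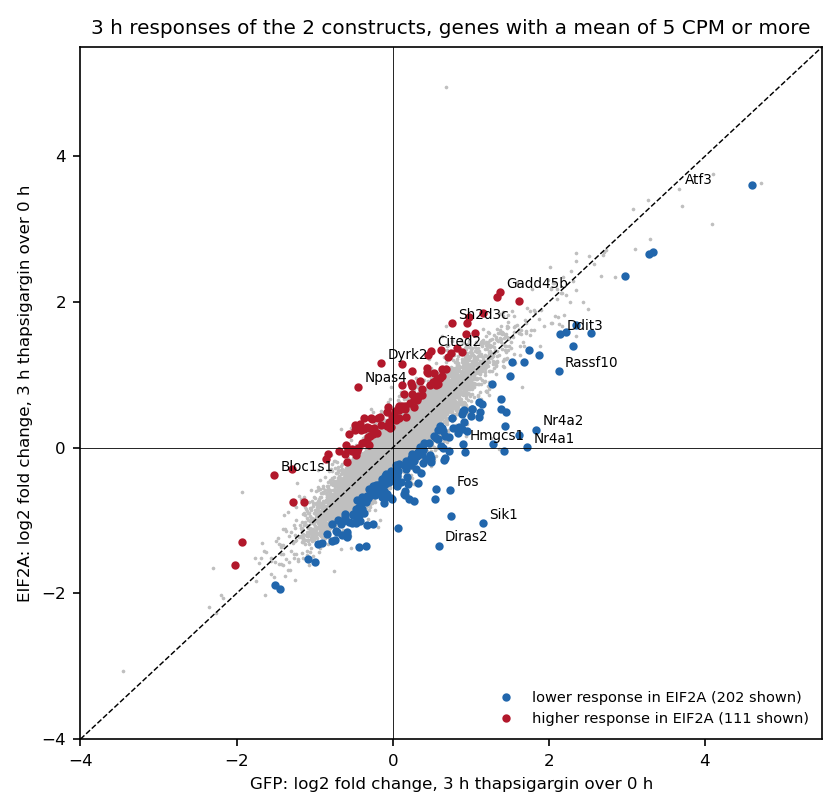
Log2 fold change from 0 h to 3 h of thapsigargin in GFP (x axis) and EIF2A (y axis) for the 10944 genes that averaged 5 CPM or more, each point a gene. Blue and red points are genes with a lower or higher response in EIF2A, and the dashed line marks equal responses. Most genes lie along the line; Sik1, at 1.15 and -1.03, and Bloc1s1, at -1.52 and -0.37, lie far from it.

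The 12 libraries held 10522758 to 22222701 counts in genes, with the least in EIF2A at 0 h (10522758 to 14798547). Reads outside genes made up 12.4% to 13% of GFP libraries at 0 h and 17.2% to 17.9% of EIF2A libraries at 0 h, and 11.1% to 12.5% and 13.3% to 14.9% at 3 h, so this share fell more in EIF2A; its part in the results was not tested. Eif2a itself (chr3:58525821-58557501, GENCODE M21 on GRCm38) was at 79, 77.8 and 78.7 CPM in GFP at 0 h and 102, 99.4 and 91.2 at 3 h. EIF2A libraries held 141, 142 and 134 CPM and 209, 194 and 164 CPM. EIF2A libraries were above GFP libraries at both times, without overlap, and the response of Eif2a did not pass the test of the interaction (0.13, 95% interval, not adjusted for the number of genes, -0.10 to 0.36; adjusted p = 0.604). Replicate 4 of EIF2A at 3 h, where Eif2a was lowest, stood apart from its 2 companions over all genes. Without it 335 genes had a higher and 514 a lower response, the 330 genes among them. Leaving out any other single library gave fewer calls than the 330, from 135 to 328 in all. Levels differed between the constructs for 63.2% of genes already at 0 h, so a difference in response cannot be told apart from a difference between the 2 cell populations. Of 30 tested markers of alpha, delta, acinar, duct, mesenchymal, endothelial and macrophage cells, none passed the interaction test, where 2.42% of all genes did. At that share a list this short can hold no call. Of the 6 tested macrophage markers, 3 had an unadjusted p under 0.05, and the list's median interaction was -3.19. Among them C1qb and C1qc reached only 2.56 and 1.86 CPM. C1qa, which carried most of the macrophage list, was at 58.4 to 63.1 CPM in GFP at 0 h, 22.8 to 32.9 in GFP at 3 h, 27.5 to 33.5 in EIF2A at 0 h and 8.41 to 13.5 in EIF2A at 3 h. The summed macrophage list (9 markers) stood at 64.0 to 70.2, 29.9 to 55.0, 27.2 to 37.7 and 10.5 to 16.8 CPM in those groups; its part in the results was not tested. Other markers differed in level in either direction at 0 h: Gcg, the glucagon gene of alpha cells, was at 691 to 735 CPM in GFP and 226 to 241 in EIF2A, the duct marker Spp1 at 606 to 618 and 29.4 to 30.9, and Ttr, on the alpha cell list, at 1059 to 1080 and 1130 to 1167.

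Nr4a1, Nr4a2, Nr4a3 and Fos, 4 of those 12 genes, are known targets of CREB. Their promoters, and that of Npas4, whose response was higher, were chosen after the values were seen and are shown for comparison. Each run is the 250 bases before the transcription start on the gene's strand, from RefSeq on GRCm38.p6, with TGACG, the core of the CREB-binding element, or its reverse complement CGTCA, in capitals. For Nr4a1 and Npas4 the RefSeq start lies within the longer gene that GENCODE M21 annotates.
Nr4a1 (chr15:101266596-101266845): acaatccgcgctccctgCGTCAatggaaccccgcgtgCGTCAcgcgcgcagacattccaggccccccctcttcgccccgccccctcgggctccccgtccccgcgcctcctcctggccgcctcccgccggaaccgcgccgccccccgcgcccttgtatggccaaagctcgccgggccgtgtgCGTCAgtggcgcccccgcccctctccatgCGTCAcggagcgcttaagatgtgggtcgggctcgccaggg
Nr4a2 (chr2:57124004-57124253): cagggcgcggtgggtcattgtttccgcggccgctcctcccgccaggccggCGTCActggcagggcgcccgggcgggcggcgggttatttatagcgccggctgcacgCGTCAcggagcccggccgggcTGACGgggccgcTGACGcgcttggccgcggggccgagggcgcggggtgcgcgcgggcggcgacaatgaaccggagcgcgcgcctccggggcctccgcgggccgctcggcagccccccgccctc
Nr4a3 (chr4:48045055-48045304): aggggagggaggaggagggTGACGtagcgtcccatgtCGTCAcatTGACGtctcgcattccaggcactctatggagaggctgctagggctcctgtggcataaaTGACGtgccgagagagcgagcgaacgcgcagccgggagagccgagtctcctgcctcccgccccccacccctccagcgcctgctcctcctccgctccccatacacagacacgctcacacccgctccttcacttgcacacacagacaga
Fos (chr12:85473640-85473889): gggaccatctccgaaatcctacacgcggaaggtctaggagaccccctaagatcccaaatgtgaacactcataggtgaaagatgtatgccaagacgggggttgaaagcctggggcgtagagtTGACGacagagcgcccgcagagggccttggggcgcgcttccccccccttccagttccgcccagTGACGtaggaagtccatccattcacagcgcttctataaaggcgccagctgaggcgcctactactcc
Npas4 (chr19:4989972-4990221): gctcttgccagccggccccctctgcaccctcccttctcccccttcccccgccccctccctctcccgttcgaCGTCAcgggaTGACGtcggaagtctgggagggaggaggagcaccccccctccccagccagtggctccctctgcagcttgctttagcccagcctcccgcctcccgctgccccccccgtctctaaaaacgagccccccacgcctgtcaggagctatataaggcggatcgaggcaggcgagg

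The Nr4a promoters held 4 copies each and those of Fos and Npas4 held 2 each, so genes that moved in opposite directions share the motif. Searched on both strands, TGACG stood in a promoter of 43.0% of the 151 genes with an entry among the 210 lower-response genes. The share was 32.2% of 87 genes among the 120 higher-response genes and 30.9% of 10343 among all genes tested. Of all 32851 RefSeq promoters, counted singly rather than by gene, 17.8% held it. A gene can have several promoters, so the last share is not the same measure. The full element TGACGTCA, which contains TGACG, was in 5.30%, 3.45%, 3.28% and 1.55% of the same sets. The AP-1 motif TGANTCA was in 11.9%, 4.60%, 5.29% and 6.75%. The ATF4-CEBP motif TGATGNAAN was in 1.99%, 2.30%, 2.31% and 3.44%. These are matches of letters, not bound sites. Sik1, Crem and Egr1 are named only.

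Immediate early genes code mostly for short-lived transcription factors and feedback regulators that respond to a signal without new protein synthesis. Of 47 listed, 44 were tested, and 11 had a lower and 2 a higher response in EIF2A, against 1.54% and 0.881% of all genes. The list's median interaction was -0.20, beside -0.011 over all genes tested. In GFP 34 of the 44 rose, and in EIF2A 24 did, where 31.8% and 30.8% of all genes rose. Without replicate 4 of EIF2A at 3 h, the only library whose removal raised calls over all genes, 12 were lower and 5 higher.

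Sik1 (chr17:31844250-31855804), a CREB-induced kinase that restrains CREB coactivators, had the lowest interaction among the genes that passed the test and averaged 5 CPM or more. Its levels in GFP were 26.4, 25.4 and 27.8 CPM at 0 h and 58.7, 63.2 and 55.3 CPM at 3 h. In EIF2A they were 10.6, 9.92 and 8.56 CPM at 0 h and 5.68, 4.04 and 4.61 CPM at 3 h. Sik1 thus rose in GFP and fell in EIF2A, with no overlap between any of the 4 groups. The interaction was -2.18 ± 0.16 (log2, ± SE; adjusted p = 1.38e-05), made of a response of 1.15 in GFP and -1.03 in EIF2A. At 1 h, outside this comparison, Sik1 stood at 65.2 to 72.5 CPM in GFP and 28.5 to 31.3 CPM in EIF2A, above 0 h in both constructs.

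The 3 Nr4a genes, orphan nuclear receptors and markers of calcium and cAMP signalling, showed the same order. Nr4a1 (chr15:101254269-101274795) was at 82.9, 85.7 and 84.4 CPM in GFP at 0 h and 267, 272 and 295 CPM at 3 h. In EIF2A it was at 26.5, 21.2 and 21.8 CPM and 19.8, 24 and 26.4 CPM. The EIF2A groups overlapped each other, while the GFP groups were far apart, and the interaction was -1.71 ± 0.14 (adjusted p = 1.59e-05). At 1 h Nr4a1 was at 481 to 512 CPM in GFP and 179 to 197 CPM in EIF2A, so that at 3 h it was back near its 0 h level in EIF2A and above it in GFP. Nr4a2 was at 15.6, 15.8 and 14.8 CPM and 57.2, 55 and 53.1 CPM in GFP, and at 8.61, 7.54 and 5.98 CPM and 7.93, 10.2 and 8.44 CPM in EIF2A. Its interaction was -1.59 ± 0.16 (adjusted p = 9.33e-05), and that of Nr4a3 was -1.44 ± 0.22 (adjusted p = 0.00271). All 3 were lower in EIF2A at 0 h as well, by -1.86, -1.04 and -1.0 for Nr4a1, Nr4a2 and Nr4a3, and the gap widened to -3.57, -2.63 and -2.44 at 3 h. These are a lower level and a lower response together.

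Fos (chr12:85473890-85477273), the AP-1 subunit, was at 34.4, 35 and 34.3 CPM in GFP at 0 h and 56.6, 56.4 and 59.5 CPM at 3 h. Fos in EIF2A was at 20.1, 14.9 and 13.5 CPM and 9.36, 12.5 and 11.1 CPM. It rose in GFP and fell in EIF2A (interaction -1.31 ± 0.16, adjusted p = 5.72e-04). Egr1, a zinc-finger factor downstream of ERK, was level in GFP, with 102, 102 and 102 CPM at 0 h and 113, 103 and 104 CPM at 3 h. In EIF2A it went from 50.6, 51.7 and 38.1 CPM to 23, 22 and 20.5 CPM, without overlap (interaction -1.17 ± 0.13, adjusted p = 2.00e-04). Crem, a CREB relative whose short form is a repressor, started level and parted later. It was at 37.4, 37.7 and 41.5 CPM in GFP and 38.9, 38 and 39.3 CPM in EIF2A at 0 h, and at 58.1, 57.9 and 54.6 CPM and 27.7, 27.1 and 23.3 CPM at 3 h. The interaction of Crem was -1.12 ± 0.10 (adjusted p = 5.07e-05), a lower response without a lower starting level. Exons of Crem share bases with a gene on the other strand, and so do those of Eif2a above and of Cebpd, Lrrtm2, Gprc5b, Sh2d3c, Ddit3, Txnip, Gadd45a and Ndufs3 below; the counting is not stated to use strand, so these values are less certain.

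The other lower members were Rassf10 (-1.08), Ier3 (-0.92), Fosl2 (-0.72) and the clock gene Per1 (-0.68). The call of Per1 was lost in 6 of 12 fits that left out 1 library. Rassf10 rose in both constructs, from 11.4, 10.5 and 10.6 to 45.1, 47.3 and 49.6 CPM in GFP and from 9.62, 11.2 and 10.2 to 20.8, 19.6 and 23.3 CPM in EIF2A. The constructs overlapped at 0 h, and at 3 h EIF2A was lower without overlap. Several members that calcium or stress also induces did not pass the test: Jun (0.19, adjusted p = 0.267), Junb (-0.23, 0.33), Ier2 (-0.27, 0.285) and Arc (-0.05, 0.929).

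Npas4 (chr19:4984355-4990316), a calcium-induced factor known from neurons and beta cells, ran the other way. Its level in GFP was 20.5, 23.2 and 21.1 CPM at 0 h and 15.9, 19.3 and 12.6 CPM at 3 h. Its level in EIF2A was 9.83, 11.4 and 10.4 CPM and 18.3, 18.1 and 19.8 CPM. Npas4 fell in GFP and rose in EIF2A without overlap between 0 h and 3 h in either, and the constructs, well apart at 0 h, overlapped at 3 h. The interaction was 1.28 ± 0.18 (adjusted p = 0.00156). Dusp4, a MAP kinase phosphatase, was the other member with a higher response (0.39, adjusted p = 0.0339).

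**Figure D2:**
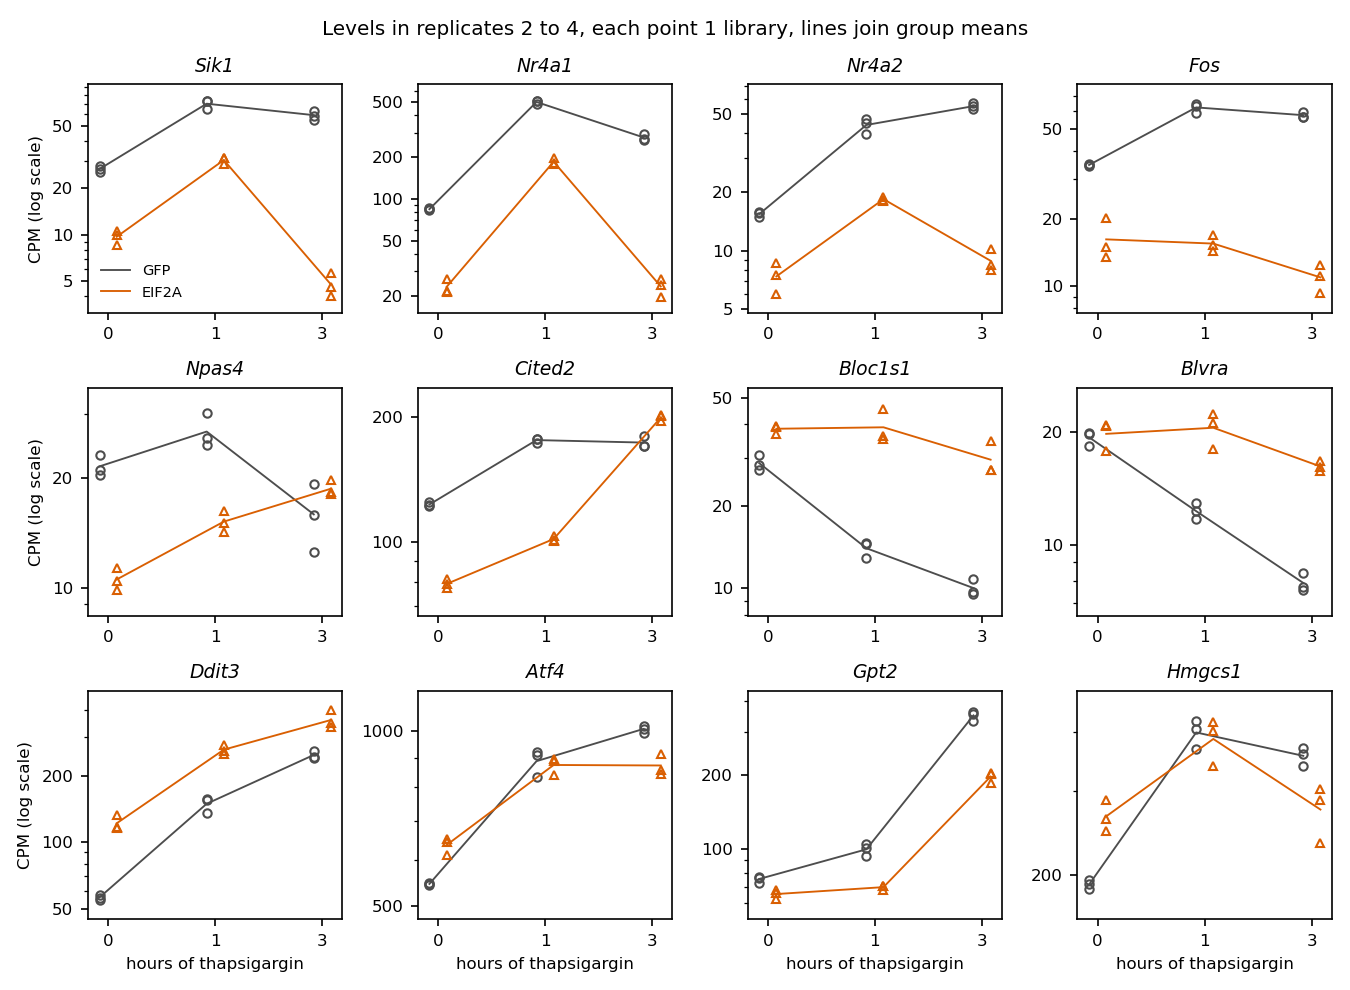
Level of 12 genes in CPM on log axes after 0, 1 and 3 h of thapsigargin (x axis, times evenly spaced and not to scale), in GFP (grey circles) and EIF2A (orange triangles). Each point is 1 library of replicates 2 to 4 and lines join group means; Nr4a1 returns to 19.8 to 26.4 CPM at 3 h in EIF2A and stays at 267 to 295 CPM in GFP.

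The integrated stress response was switched on in both constructs, with a smaller rise of some of its genes in EIF2A. Of 42 ATF4 and CHOP targets tested (43 listed), 41 rose in GFP and 39 in EIF2A, where 31.8% and 30.8% of all genes rose. The median rise was 1.47 in GFP and 1.30 in EIF2A on the log2 scale. The interaction was lower for 10 and higher for 2, against 1.54% and 0.881% of all genes, and the list's median interaction was -0.20, beside -0.011 over all genes. Without replicate 4 of EIF2A at 3 h, the only library whose removal raised calls over all genes, 15 were lower and 2 higher.

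Atf4 (chr15:80255184-80257541), the transcription factor of the pathway, was at 544, 548 and 544 CPM in GFP at 0 h and 1009, 993 and 1022 CPM at 3 h. In EIF2A it was at 653, 645 and 611 CPM and 858, 845 and 914 CPM. EIF2A libraries lay above GFP libraries at 0 h and below them at 3 h, without overlap at either time. The rise was 0.89 in GFP and 0.46 in EIF2A (interaction -0.43 ± 0.068, adjusted p = 0.0037).

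Ddit3 (chr10:127290774-127296288), which encodes CHOP, separates a lower response from a lower level. It was at 55.8, 54.9 and 57.9 CPM in GFP at 0 h and 242, 244 and 260.3 CPM at 3 h. In EIF2A it was at 118, 132 and 116 CPM and 334, 346 and 396 CPM. Every EIF2A library was above every GFP library of the same time, by 1.11 at 0 h and 0.52 at 3 h on the log2 scale. The rise on the log2 scale was nevertheless smaller in EIF2A, 1.56 against 2.15 (interaction -0.59 ± 0.10, adjusted p = 0.00649). In CPM the mean gain was larger in EIF2A, so the direction depends on the scale. Trib3, an inhibitor of ATF4 and CHOP, showed the same arrangement (-0.65, higher in EIF2A at both times by 1.20 and 0.55), as did Eif4ebp1, a brake on cap-dependent translation (-0.51, 0.92 and 0.41). The call of Eif4ebp1 was lost in 4 of 12 fits that left out 1 library.

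Amino acid genes of the pathway split. Gpt2, which makes alanine in the mitochondria, was at 77.1, 76.4 and 72.7 CPM in GFP at 0 h and 363, 355 and 332 CPM at 3 h. Gpt2 in EIF2A was at 67.8, 62.8 and 65.8 CPM and 201, 204 and 187 CPM, which is lower at both times and by more at 3 h (interaction -0.62 ± 0.081, adjusted p = 8.12e-04). Slc1a4, a transporter of neutral amino acids, had an interaction of -0.61 ± 0.081 (adjusted p = 9.01e-04), and Mthfd2, of mitochondrial one-carbon metabolism, one of -0.39 ± 0.064 (adjusted p = 0.00534). Both genes were higher in EIF2A at 0 h (0.30 and 0.22) and lower at 3 h (-0.31 and -0.17). Slc7a1, the cationic amino acid transporter, was at -0.52, and Chac1, which degrades glutathione, at -0.63. Ddit4, an inhibitor of mTORC1, was at -0.42 and Atf5, an ATF4 relative, at -0.38; Atf5 rose in GFP and fell in EIF2A.

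The 2 members with a higher response were Slc3a2 and Nupr1. Slc3a2, the heavy chain of several amino acid transporters, went from 182, 188 and 188 to 566, 585 and 569.6 CPM in GFP and from 128, 129 and 129 to 511, 509 and 535 CPM in EIF2A. It was lower in EIF2A at both times, and the gap narrowed (interaction 0.39 ± 0.065, adjusted p = 0.00573). Nupr1, a stress-induced nuclear protein, was at 0.40 (adjusted p = 0.0288).

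Atf3, an early ATF4 target, did not pass the test. It went from 8.16, 9.64 and 9.99 to 114, 117 and 119 CPM in GFP and from 15.6, 14 and 16.2 to 173, 181 and 185 CPM in EIF2A, with an interaction of -0.10 (95% interval -0.34 to 0.13, adjusted p = 0.691). Ppp1r15a, the feedback phosphatase subunit GADD34, was at -0.0059 (adjusted p = 0.992), and Asns, asparagine synthetase, at -0.25 (adjusted p = 0.0733).

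The upstream kinases and eIF2 genes gave 1 call among 20, that of Atf4, which is on that list too. Of 20 cytosolic tRNA synthetases, also raised by ATF4, 1 had a higher response (Farsa, 0.35, adjusted p = 0.0423), and 16 rose in GFP and 17 in EIF2A. Leaving out 1 library cost the call of Farsa in 9 of 12 fits.

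Genes of protein folding, export and disposal in the ER had few calls, 6.45% to 6.90% of each list beside 2.42% of all genes. In lists this short a few calls set the share, so it is not read as a trait of the lists. Among 31 ER chaperones and folding enzymes 1 response was lower and 1 higher, among 29 genes of ER-associated degradation 2 were lower and none higher, and among 46 of translocation, glycosylation and vesicle traffic 2 were lower and 1 higher. Medians of these 3 lists were -0.062, -0.11 and -0.083. Without replicate 4 of EIF2A at 3 h, which raised calls over all genes, 6, 5 and 2 were lower and 2, 0 and 1 higher.

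Hspa5, the chaperone BiP, was at 1057, 1016 and 1022 CPM in GFP at 0 h and 1301, 1322 and 1313 CPM at 3 h. Levels of Hspa5 in EIF2A were 1137, 1123 and 1007 CPM and 1142, 1101 and 1036 CPM. GFP libraries at 3 h were all above those at 0 h, while the EIF2A groups overlapped (interaction -0.34 ± 0.079, adjusted p = 0.0355). The call for Hspa5 was lost when single libraries were left out (adjusted p up to 0.153) and with library totals as the scale (0.0962). Herpud1, which scaffolds the degradation complex, rose from 141, 145 and 140.2 to 404, 397 and 422 CPM in GFP and from 126, 135 and 126 to 282, 289.6 and 303 CPM in EIF2A (interaction -0.35 ± 0.072, adjusted p = 0.0206). Vcp, the segregase of that pathway (-0.37), Sec61a1, the translocon channel (-0.40), and Srp9 of the signal recognition particle (-0.32) fell in both constructs, and further in EIF2A. Leaving out 1 library cost the call in 7 of 12 cases for Herpud1 and Sec61a1, 9 for Srp9 and 2 for Vcp. Tusc3, of the oligosaccharyltransferase, had a higher response (0.42), a call lost in 8 of those 12 fits.

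Ern1, which encodes IRE1, rose more in EIF2A on the log2 scale, from a much lower level, while in CPM it gained more in GFP. It was at 45.1, 45.8 and 46.7 CPM in GFP at 0 h and 85.6, 88.4 and 89 CPM at 3 h, against 9.26, 8.01 and 10.3 and 24.7, 28.2 and 28 CPM in EIF2A. The higher response of Ern1 (0.62 ± 0.11, adjusted p = 0.00973) therefore went with a level that remained lower by -1.70 at 3 h (log2). Xbp1, whose mRNA IRE1 splices, rose by 0.75 in GFP and 0.71 in EIF2A, with an interaction of -0.044 (95% interval -0.22 to 0.13, adjusted p = 0.85). Gene counts do not tell spliced from unspliced Xbp1.

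Bloc1s1 (chr10:128917882-128924035), a subunit of the BLOC-1 complex of lysosome-related organelles, is the best known mRNA that IRE1 cuts outside Xbp1, and its loss serves as a readout of that decay. It fell in GFP and much less in EIF2A. IRE1 cuts within CTGCAG when a stem-loop presents it. The GENCODE M21 coding sequence of 375 bases holds this hexamer 3 times, shown in capitals within 30 bases of coding sequence starting at bases 43, 74 and 346.
Bloc1s1, bases 43 to 72: gaacgcaaggagCTGCAGgagaagaggagg
Bloc1s1, bases 74 to 103: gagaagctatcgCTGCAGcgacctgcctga
Bloc1s1, bases 346 to 375: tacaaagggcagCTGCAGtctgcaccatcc

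Of 309 tested genes with a coding sequence within 10% of that length, 37.9% hold the hexamer, and which copy is cut cannot be read from gene counts. Bloc1s1 was at 27.1, 30.8 and 28.4 CPM in GFP at 0 h and 9.52, 9.69 and 10.8 CPM at 3 h. In EIF2A it was at 36.9, 39.3 and 39.1 CPM and 27.1, 27 and 34.7 CPM. All 3 EIF2A libraries at 3 h were above the GFP libraries at 3 h and below the EIF2A libraries at 0 h. The fall was -1.52 in GFP and -0.37 in EIF2A (interaction 1.15 ± 0.14, adjusted p = 4.61e-04). At 1 h it was at 12.9 to 14.7 CPM in GFP and 35.3 to 45.2 CPM in EIF2A. Annotated exons of Bloc1s1 share bases with Rdh5 on the same strand, so reads could be lost or shared between these genes.

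Of 10 listed substrates of regulated IRE1-dependent decay 7 were tested, and Bloc1s1 was the only one called higher. Over all genes 0.881% were higher and 1.54% lower. The list's interactions ran from -5.69 to 1.15, with 4 of the 7 below 0. Its median was -0.25, beside -0.011 over all genes tested. Galnt2, a glycosyltransferase, had a lower response (-0.34, adjusted p = 0.0483), falling by more in EIF2A, and its call was lost in 11 of 12 fits that left out 1 library. The other 5 did not pass, 4 of them at an unadjusted p under 0.05; Erp44 (0.24, adjusted p = 0.232) and Hgsnat (0.11, adjusted p = 0.589) had positive values and Sparc, Pmp22 and Tgoln1 negative ones. Without replicate 4 of EIF2A at 3 h, which raised calls over all genes, 2 substrates were higher and 1 lower.

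The cholesterol and fatty acid list, controlled by SREBP factors that the ER releases when its cholesterol falls, had 8 lower and no higher responses among 31 tested, against 1.54% and 0.881% of all genes. Its median interaction was -0.23. In GFP 18 members rose and 5 fell, where 31.8% and 30% of all genes did. In EIF2A 11 rose and 6 fell, where 30.8% of all genes rose and 30.8% fell. Leaving out single libraries left 2 to 13 calls, with 13, all lower, without replicate 4 of EIF2A at 3 h.

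Hmgcs1, the cytosolic HMG-CoA synthase, was at 195, 191 and 187 CPM in GFP at 0 h and 370.0, 359 and 339 CPM at 3 h. Levels of Hmgcs1 in EIF2A were 287, 262 and 247 CPM and 304, 287 and 233 CPM, the last of these being replicate 4. The level was higher in EIF2A at 0 h and lower at 3 h, and the EIF2A groups overlapped (interaction -0.85 ± 0.12, adjusted p = 0.00133). At 1 h, Hmgcs1 was in the same range in both constructs, 369 to 421 CPM in GFP and 339 to 419 CPM in EIF2A. Insig1, which retains SREBP in the ER, went from 237, 241 and 235 to 447, 459 and 418 CPM in GFP and from 285, 291 and 246 to 353, 339 and 292 CPM in EIF2A (interaction -0.63 ± 0.11, adjusted p = 0.00649). Msmo1 (-0.56), Hsd17b7 (-0.63) and Pmvk (-0.39) are further enzymes of the sterol pathway. Fasn, the fatty acid synthase, was at -0.53. Of the 8 lower members, 7 were higher in EIF2A at 0 h and 5 were lower there at 3 h; Hsd17b7 was lower at both times.

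Histone mRNAs, which normally lack a polyA tail, rose in nearly every case: 52 of 55 in GFP and 53 in EIF2A. Over all genes 31.8% and 30.8% rose. The interaction was lower for 6 and higher for none, against 1.54% and 0.881% of all genes. The list's median was -0.013, beside -0.011 over all genes. Hist1h2bc was at 109, 118 and 109.9 CPM in GFP at 0 h and 300.4, 291 and 290.1 CPM at 3 h, and at 297, 292 and 271 and 472, 452 and 435 CPM in EIF2A. It was higher in EIF2A at both times and rose less there (interaction -0.73 ± 0.077, adjusted p = 1.58e-04). The others were Hist1h1b (-1.0), Hist1h4k (-0.96), Hist1h3g (-0.91), Hist3h2a (-0.61) and H1f0 (-0.30), a linker histone with a polyA tail that met the list's name pattern. Leaving out 1 library cost the call in 3 of 12 cases for Hist3h2a and 10 for H1f0. The call of H1f0 was also lost with library totals (adjusted p = 0.0518). Histone genes of 1 type are near copies, so reads could be shared among them, and exons of Hist3h2a share bases with Trim17 on the same strand.

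**Figure D3:**
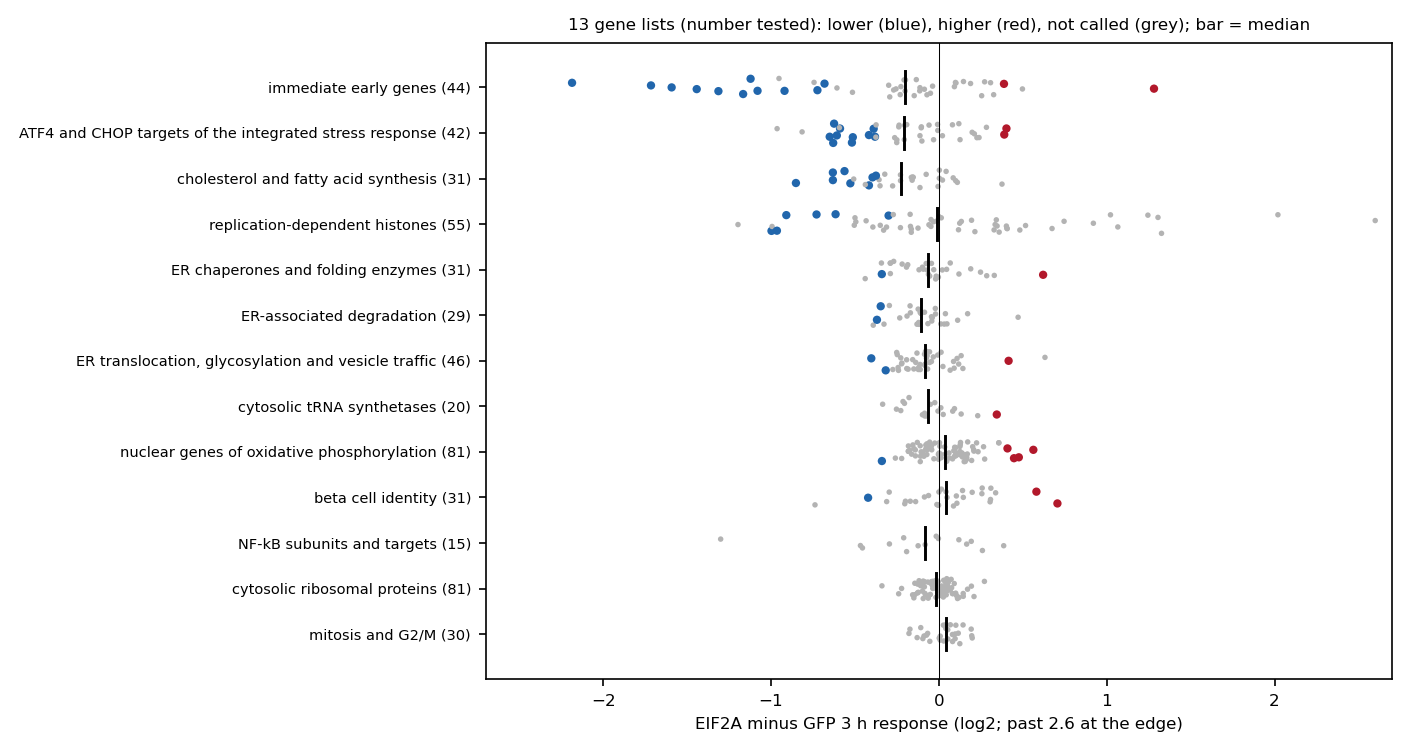
Interaction on the log2 scale (x axis) of each tested member of 13 gene lists, with the number tested in brackets. Blue and red points passed the test with a lower or higher response in EIF2A, grey points did not, and black bars are medians. Immediate early genes reach -2.18 (Sik1) and 1.28 (Npas4). None of the 81 cytosolic ribosomal protein genes passed, where 2.42% of all genes did.

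Genes of mitochondrial respiration fell in both constructs, in 67 of 81 for GFP and 61 for EIF2A (30% and 30.8% over all genes), and 4 had a higher and 1 a lower response in EIF2A (7 and 2 without replicate 4 of EIF2A at 3 h). Ndufa9 of complex I was at 113, 114 and 116 CPM in GFP at 0 h and 87.1, 95.6 and 96.2 CPM at 3 h, and at 83, 85.2 and 93 and 109.5, 105 and 98.3 CPM in EIF2A. It fell in GFP and rose in EIF2A (0.56 ± 0.088, adjusted p = 0.00328). Atp5b, of the ATP synthase (0.48), and Ndufs3 of complex I (0.41) were also higher, and Sdhc of complex II was lower (-0.34). Among 34 glycolysis and hypoxia genes, 3 were higher and 1 lower. Pfkfb3, which makes the activator of phosphofructokinase, fell in both constructs and less in EIF2A (-2.03 against -1.61; interaction 0.41), as did Pdk1, the kinase that blocks pyruvate dehydrogenase (-1.14 against -0.74; 0.39). Eno1 (1.59) has a near-identical copy in the mouse genome and is uncertain, and Ndrg1 was lower (-0.28). Leaving out 1 library cost the call in 8 of 12 fits for Pfkfb3 and for Eno1. It cost the call in 10 for Pdk1 and for Ndrg1, and in 2 for Ndufs3. With library totals the call of Ndrg1 was lost too (adjusted p = 0.113).

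Of 31 beta cell identity genes 2 responses were higher and 1 lower, 9.68% of the list against 2.42% of all genes. Glp1r, the receptor for the incretin GLP-1, was at 73.6, 73.5 and 76 CPM in GFP at 0 h and 63.6, 66.2 and 70.1 CPM at 3 h, and at 36.5, 35.8 and 35.1 and 46.8, 45.1 and 51.9 CPM in EIF2A. It fell in GFP and rose in EIF2A but was below GFP at both times (0.58 ± 0.091, adjusted p = 0.00328). Ffar1, a fatty acid receptor that boosts insulin secretion, fell in GFP alone past the threshold (0.71, adjusted p = 0.0126), and the islet factor Isl1 fell by more in EIF2A (-0.42, adjusted p = 0.00649). Pcsk1, the prohormone convertase, was the sole call among 31 secretory granule genes (0.25, adjusted p = 0.0435), lost in 9 of 12 fits without 1 library.

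The insulin genes fell in both constructs from unlike levels. Ins1 was at 8176, 8084 and 8217 CPM in GFP at 0 h and 3530.0, 3848 and 4000.0 CPM at 3 h, and at 21297, 23513 and 23636 and 11594, 11662 and 14714 CPM in EIF2A. Its interaction was 0.26 (95% interval 0.0068 to 0.51, adjusted p = 0.295). For Ins2 it was 0.049 (-0.17 to 0.26, adjusted p = 0.869), around a fall of -1.06 in GFP and -1.01 in EIF2A. Txnip, the thioredoxin inhibitor raised by glucose and ER stress, rose by 2.35 and 2.57 (interaction 0.21, 0.059 to 0.37, adjusted p = 0.146), and passed without replicate 4 of EIF2A at 3 h (0.24, adjusted p = 0.0427). The factors Pdx1 (0.31, 0.0095 to 0.61, adjusted p = 0.292) and Mafa (-0.74, -1.44 to -0.04, adjusted p = 0.278) did not pass either. Mafa varied within groups, with 99.7, 113 and 206 CPM in the 3 EIF2A libraries at 3 h, so a difference of 2-fold lies within its interval.

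Of 23 BCL2 family and apoptosis genes, 2 had a higher and 1 a lower response, against 0.881% and 1.54% of all genes. The same shares stand beside the p53, heat shock and calcium handling lists below. Bmf and Bcl2l11 encode pro-death BH3-only proteins. Bmf was at 5.66, 5.70 and 4.78 CPM in GFP at 0 h and 5.08, 5.2 and 4.70 CPM at 3 h, and at 2.30, 3.05 and 2.89 and 5.21, 5.56 and 5.03 CPM in EIF2A. It was lower in EIF2A at 0 h and overlapped GFP at 3 h (1.07 ± 0.19, adjusted p = 0.00816). Bcl2l11, which encodes BIM, was at -0.44 in GFP, a fall, and at -0.00021 in EIF2A (0.44, adjusted p = 0.0328). Mcl1, a survival protein, was at 0.31 in GFP and -0.11 in EIF2A (-0.42, adjusted p = 0.0339). Leaving out 1 library cost the call in 10 of 12 cases for Mcl1, which was also lost with library totals (0.0849), and in 9 for Bcl2l11. Among 18 p53 targets, Gadd45b was higher (0.77) and Cdkn1a and Gadd45a lower (-0.39 and -0.37, lost in 6 and 8 of those fits). Of 25 heat shock genes the cochaperone Bag3 (-0.58) and Hsp90aa1 (-0.40) were lower, and of 30 genes of calcium handling Atp2b1, a plasma membrane calcium pump (-0.69), and Atp2a2, which encodes SERCA2, the target of thapsigargin itself (-0.30, adjusted p = 0.0315), were lower. The calls of Atp2a2 and Hsp90aa1 were lost in 10 and 7 of 12 fits that left out 1 library, and with library totals (adjusted p = 0.0917 and 0.0746).

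No member of the lists of cytosolic ribosomal proteins (81 tested), NF-kB genes (15), S phase genes (33), mitosis and G2/M genes (30), Txnip relatives and ChREBP targets (12) or disallowed beta cell genes (18) passed the edgeR test of the interaction. Over all genes 2.42% passed, a share at which lists of this size can hold few calls or none. At an unadjusted p under 0.05, met by 2201 of all 13615 genes, the lists held 1, 3, 12, 4, 1 and 4 members. DESeq2 called 0, 1, 6, 0, 0 and 0. Their medians were -0.015, -0.081, 0.089, 0.043, 0.020 and -0.18. For S phase genes DESeq2 gave 5 higher and 1 lower, edgeR on library totals 7 higher, and edgeR on RLE size factors none. Without replicate 4 of EIF2A at 3 h, edgeR called 4 S phase genes higher and 1 lower, 1 mitosis gene and 2 Txnip relatives higher, and 1 NF-kB gene and 1 disallowed gene lower.

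Outside these lists, Diras2, a small GTPase, was at 7.80, 6.88 and 7.31 CPM in GFP at 0 h and 11.4, 11.9 and 9.87 CPM at 3 h, and at 7.03, 7.63 and 9.08 and 3.38, 2.92 and 2.93 CPM in EIF2A. The constructs overlapped at 0 h and were far apart at 3 h (-1.94 ± 0.18, adjusted p = 5.47e-05). Igf1r, the IGF-1 receptor, rose in GFP from 145, 140.2 and 139.9 to 216, 214 and 190.0 CPM and fell in EIF2A from 110.3, 106 and 88.7 to 63.1, 65.2 and 59.2 CPM (-1.25 ± 0.11, adjusted p = 2.79e-05). Flrt3, an adhesion protein of the membrane, shows a lower response with a higher starting level. It was at 5.97, 6.10 and 6.29 CPM in GFP at 0 h and 18.5, 14.9 and 15.9 CPM at 3 h, and at 18.7, 19.7 and 20.4 and 19.5, 20.4 and 16.8 CPM in EIF2A, so that GFP rose to the EIF2A level (-1.48 ± 0.14, adjusted p = 7.04e-05). Tbx3 (-1.69 ± 0.35, adjusted p = 0.0221), a T-box factor, was at 0.825 to 1.22 CPM in EIF2A at 0 h and 0.359 to 0.76 CPM at 3 h against 12 to 13 and 19.1 to 22.2 CPM in GFP, and lost its call in 2 of 12 fits without 1 library. Cebpd, a C/EBP factor, was at -1.24 ± 0.18 (adjusted p = 0.00166) and Lrrtm2, a synaptic adhesion protein, at -1.15 ± 0.24 (adjusted p = 0.0227); the latter lost its call in 7 of 12 fits without 1 library.

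Among the 12 highest interactions, Dyrk2, a kinase of the p53 and proteasome pathways, was at 15.9, 16.6 and 16.1 CPM in GFP at 0 h and 14.9, 15.8 and 13.1 CPM at 3 h, and at 5.24, 5.25 and 4.02 and 10.8, 10.9 and 11.1 CPM in EIF2A. It rose in EIF2A toward the GFP level and stayed below it (1.31 ± 0.15, adjusted p = 2.27e-04). Cited2, a coregulator of CBP and p300, was at 125, 123 and 122 CPM in GFP at 0 h and 171, 170.0 and 179.9 CPM at 3 h, and at 79.1, 81.4 and 77.5 and 202, 201 and 196 CPM in EIF2A. EIF2A libraries crossed from below to above the GFP libraries, without overlap at either time (0.84 ± 0.067, adjusted p = 1.59e-05). Blvra, biliverdin reductase, started level and fell mainly in GFP: 19.9, 19.8 and 18.4 and then 7.58, 7.72 and 8.43 CPM, against 20.7, 17.7 and 20.8 and then 16.1, 15.7 and 16.7 CPM in EIF2A (1.00 ± 0.12, adjusted p = 3.79e-04). Sh2d3c, an adaptor of integrin signalling, rose in both and more in EIF2A, from 16, 16.8 and 17.4 to 49.8, 52.3 and 61.7 CPM there and from 8.78, 8.65 and 8.81 to 14.8, 15 and 14.8 CPM in GFP (0.95 ± 0.13, adjusted p = 9.01e-04). The others were the Wnt inhibitor Axin2 (0.82), the TGF-beta inhibitor Smad7 (0.81), the channel subunit Kcnf1 (0.81), the receptor Gprc5b (0.80), the factor Pax2 (0.78) and Xkr7 (1.03). All 6 were lower in EIF2A at 0 h. Xkr7 and Kcnf1 lost their calls in 7 of 12 fits without 1 library.

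Read by the responses, the 210 lower genes were a mixture. Of these, 66 fell in both constructs and by more in EIF2A, 45 fell with EIF2A alone past the threshold, 42 rose in both and by less in EIF2A, 35 rose with GFP alone past the threshold, and 22 rose in GFP and fell in EIF2A. Ptpn21, a phosphatase, belongs to the first kind: it went from 165, 157 and 166 to 107, 106 and 112 CPM in GFP and from 516, 514 and 524 to 223, 230.2 and 219.7 CPM in EIF2A (-0.62 ± 0.067, adjusted p = 1.83e-04). Of the 120 higher genes, 45 rose in both and by more in EIF2A, 30 rose with EIF2A alone past the threshold, 20 fell in GFP and rose in EIF2A, 18 fell with GFP alone past the threshold, and 7 fell in both and by less in EIF2A.

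Read by the levels, 112 of the 210 lower-response genes were higher in EIF2A at 0 h, 55 were lower and 43 did not differ. At 3 h 47 were higher, 122 were lower and 41 did not differ. Over all genes tested, 32.3% were lower and 30.9% higher in EIF2A at 0 h, and 34.5% and 31.7% at 3 h. Taking both times together, the largest of 5 arrangements held 55 genes. Its share over all genes was not counted. These 55 were lower in EIF2A at 0 h and at 3 h, like Nr4a1, and 47 were higher at both, like Ddit3. A further 43 did not differ at 0 h and were lower at 3 h, like Crem; 41 were higher at 0 h and did not differ at 3 h, like Flrt3; and 24 were higher at 0 h and lower at 3 h, like Atf4. Of the 120 with a higher response, 37 were lower in EIF2A at both times, like Ern1, 34 were lower at 0 h alone, 20 differed at 3 h alone, 15 were higher at both, like Bloc1s1, and 14 crossed from lower to higher, like Cited2. The gap between constructs was smaller at 3 h than at 0 h for 99 of the 210 and 80 of the 120. The median level difference moved from 0.22 at 0 h to -0.31 at 3 h for lower-response genes and from -0.49 to 0.073 for higher-response genes. As the interaction is the later gap minus the earlier one, these medians move in the direction of the choice.

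**Figure D4:**
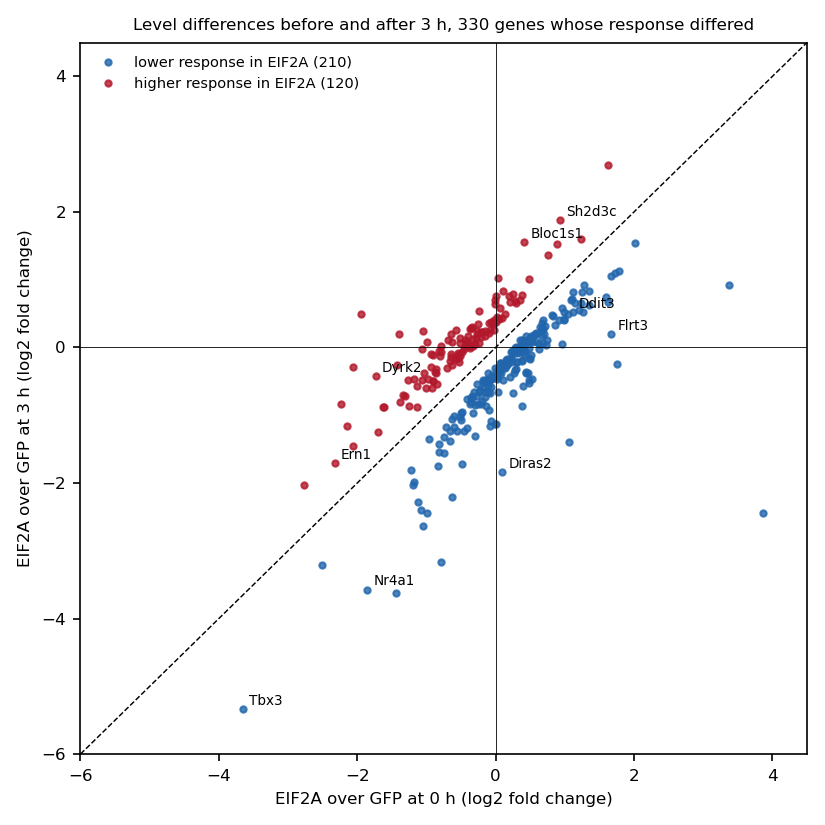
EIF2A over GFP level at 0 h (x axis) and at 3 h (y axis), as log2 fold changes, for the 330 genes whose response differed, each point a gene. Points below the dashed line of equality are the 210 lower responses (blue) and points above it the 120 higher ones (red); Ddit3 lies at 1.11 and 0.52, Nr4a1 at -1.86 and -3.57.

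Which side held more genes depended on the scale, so the split is not a result. With library totals in place of trimmed mean scaling, 306 genes were higher and 131 lower (70.0% higher, against 36.4% above), and with genes of low count kept, 167 were higher and 119 lower. All 330 genes kept the sign of their interaction under both. When the 4 libraries labelled replicate 1 were added to the fit no gene passed (96 at an unadjusted p under 0.05, against 2201 without them). In those 4 libraries alone, 269 of the 330 genes had an interaction of the opposite sign, against 7850 of all 13615 genes. For example, Fos was at 1.11 in replicate 1 beside -1.31 in replicates 2 to 4, Nr4a1 at 0.79 beside -1.71, Bloc1s1 at -0.70 beside 1.15, and Ddit3 at 0.73 beside -0.59.

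**Figure D5:**
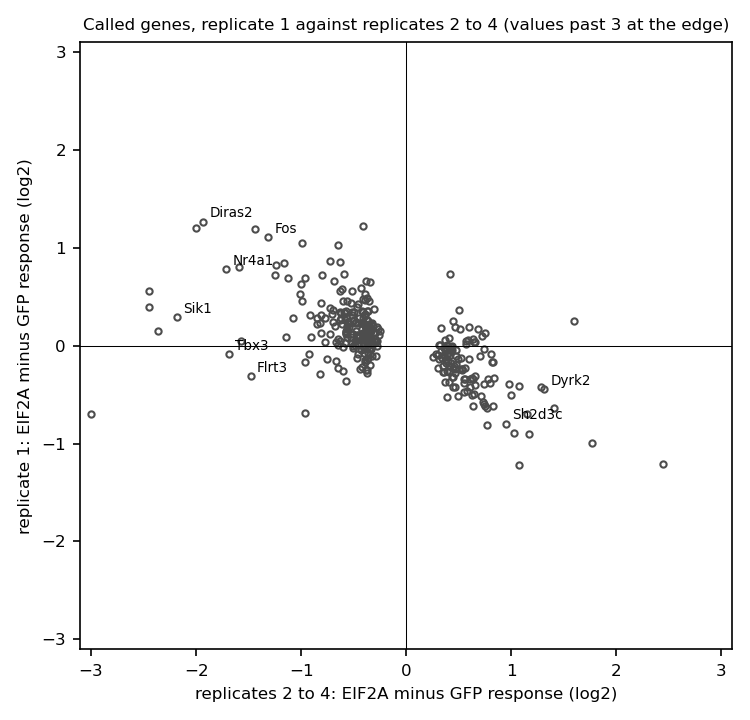
Interaction of the 330 genes in the 4 libraries of replicate 1 (y axis, log2, 1 library a group and so no error) against that in replicates 2 to 4 (x axis, log2). Most points lie in the upper left and lower right, where the signs differ (269 of 330); Flrt3 and Tbx3 are among those with the same sign.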

How the data were processed

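RNA was isolated with a column kit and polyadenylated RNA was sequenced from stranded libraries, per the labels' protocols. Reads were processed with bcl2fastq and STAR on mm10, per the submitters' processing notes. For the counting program, annotation, strand setting and versions, the entry is: not given in the sources used here. What the authors deposited is a table of unnormalized counts for 24421 genes. The 2 lines that name no gene (reads outside genes, and reads that fit more than 1) were left out; the first took 11.1% to 17.9% of the counts of the 12 libraries.

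Groups and replicate numbers came from sample titles, and each column was matched through the name in its sample's description. The 12 libraries of replicates 2 to 4 were fitted with edgeR 4.0.16 (R 4.3.3): filterByExpr, TMM scaling, 4 group means, 8 residual degrees of freedom, robust quasi-likelihood test, Benjamini-Hochberg adjustment over 13615 genes, threshold 0.05. Responses, level differences and the interaction came from this fit, so both constructs' responses and both levels share libraries. Printed CPM use TMM over all 24 libraries, with replicates 2, 3 and 4 in that order where 3 values are given. Count depth sets the precision of low genes.

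In simulated data for 13615 genes, the test of the interaction recovered 98% of 100 changes of 1 and 45% of 100 changes of 0.5 (log2). These changes were placed only in genes that averaged 5 CPM or more, so recovery in lower genes was not measured. Of the unchanged genes 11 were called. Smaller differences were thus often missed. Libraries of a group differed by more than sampling noise (chi-square over degrees of freedom 1.32 to 19.1), and none were counted as 1.

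The genes named are the 12 highest and 12 lowest interactions among those that passed with a mean of at least 5 CPM, up to 4 members per list and 3 per response class with the smallest p, and 11 genes given in any case; further list members that passed, and some that did not, were named after their values were seen. The libraries, gene lists and named genes were chosen with earlier results of these data known, and lists were described by counts and medians, with no set test. Some list members are counted but not reported here by name. The lists named nowhere else gave 1 higher among 77 mitochondrial ribosomal proteins; 1 higher and 1 lower among 61 translation factors, 30 interferon genes and 18 clock genes each; 2 higher and 1 lower among 37 proteasome subunits; 1 higher among 31 NRF2 targets; and 1 lower among 33 autophagy genes. Alternatives were DESeq2 1.42.0, other scalings, no filter, a replicate block, the 1 h libraries in the fit, all 4 replicates, each library left out, and removal of a trend on exonic length. Coordinates and coding sequence are from GENCODE M21 (GRCm38, the same build as mm10), promoters from a RefSeq table on GRCm38.p6.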

Additional observations from a re-analysis of the deposited data

Results flagged for a closer look

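All 330 genes of the report differ between the constructs by a test of that difference, 120 with a higher and 210 with a lower response in EIF2A (adjusted p under 0.05, edgeR). The 27 most extreme or routinely followed genes are given here beside the 4 libraries of replicate 1, which the test did not use and which have 1 library a group and so no error.

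Lower responses in replicates 2 to 4, and the values in replicate 1, were -2.18 and 0.30 for Sik1, -1.94 and 1.27 for Diras2, -1.71 and 0.79 for Nr4a1, -1.69 and -0.085 for Tbx3, -1.59 and 0.81 for Nr4a2, and -1.48 and -0.31 for Flrt3. Next were Nr4a3 at -1.44 and 1.19, Fos at -1.31 and 1.11, Igf1r at -1.25 and 0.73, Cebpd at -1.24 and 0.83, Egr1 at -1.17 and 0.84, and Lrrtm2 at -1.15 and 0.091. Of these, Tbx3 and Flrt3 kept their sign in replicate 1 and the others did not. For the stress genes the values were -0.59 and 0.73 for Ddit3, -0.43 and 0.59 for Atf4, and -0.34 and 0.22 for Hspa5.

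Higher responses were 1.31 and -0.45 for Dyrk2, 1.28 and -0.42 for Npas4, 1.15 and -0.70 for Bloc1s1, 1.03 and -0.89 for Xkr7, 1.00 and -0.50 for Blvra, and 0.95 and -0.80 for Sh2d3c. They were followed by Cited2 at 0.84 and -0.33, Axin2 at 0.82 and -0.61, Smad7 at 0.81 and -0.16, Kcnf1 at 0.81 and -0.084, Gprc5b at 0.80 and -0.38, and Pax2 at 0.78 and -0.34.

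Reads outside genes, which the comparison does not use, made up 17.4% ± 0.41 (SD, n = 3) of EIF2A libraries at 0 h against 12.7% ± 0.31 (n = 3) of GFP libraries, and 14.2% ± 0.81 against 11.8% ± 0.70 at 3 h.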

How the results depend on the processing

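Of 95 named genes that passed, 57 passed in each of the 12 fits that left out 1 library, and all 330 genes kept their sign with DESeq2, other scalings, no filter and the replicate block. Counts of genes with a higher and lower response moved from 120 and 210 to 247 and 330 with DESeq2, 306 and 131 with library totals, 167 and 119 without a filter on low counts (which tests 19293 genes), 213 and 353 with the 1 h libraries in the fit, and 0 and 0 with all 4 replicates. Leaving out single libraries gave 42 to 335 higher and 77 to 514 lower. Fewest were left without replicate 3 of GFP at 0 h (135 in all) and most without replicate 4 of EIF2A at 3 h (849 in all). Without any 1 of the EIF2A libraries of 0 h, 54.7% to 55.5% of calls were higher. The cause was not tested.

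With the replicate number as a block 415 were higher and 623 lower, and with a replicate block within construct 402 and 636, the 330 genes among them both times. Pdx1 passed under both (adjusted p = 0.0338 and 0.026) and Mafa under the second (0.00758). Deviations correlated over 0.1 in 4 of 6 same-numbered pairs within a construct and 9 of 12 across constructs, against 1 of 12 and 4 of 24 pairs with different numbers. Since not every same-numbered pair did, and the labels name no shared culture or day, the numbers were not taken to pair the libraries.

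With all 4 replicates, the GFP response had 2487 higher and 1947 lower genes, the EIF2A response 2631 and 2225, and the construct difference 0 and 0 at 0 h and at 3 h. With library totals 2752 genes fell in EIF2A. Some values near 0 changed sign: Ins2 (-0.049 to 0.14 over single libraries left out) was at -0.049 without replicate 4 of EIF2A at 3 h, Atf3 at 0.20 with all 4 replicates, and Xbp1 (-0.068 to 0.062) at 0.027 with library totals, 0.0069 without a filter and 0.062 without replicate 4 of EIF2A at 0 h. Removal of the length trend, chosen after seeing the data, gave 154 and 229.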
